A study of Homo sapiens with 4 samples.

Results

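The AP-1 family comprised 8 genes here, JUN, JUNB, JUND, FOS, FOSB, FOSL1, FOSL2 and ATF3, examined in chromatin immunoprecipitation followed by sequencing (ChIP-seq) of the human cell line H69. Peaks were assigned to a gene by position alone, where the centre of the peak lay within 50 kb of the gene body on build hg19. The 8 windows added up to 904 kb and held 55 of the 61551 peaks in the 3 lists. Of these, 49 came from the list of TEAD1, a DNA-binding factor of the Hippo pathway, which holds 48962 peaks. The remaining 6 came from the list of 10118 peaks made with the Avruch antibody against YAP, the coactivator that TEAD factors recruit. No peak of the list made with the Santa Cruz antibody against YAP, with 2471 peaks, fell in any window. That list has a mean of 0.0754 peaks per 100 kb of the placed chromosomes, a rate at which few or none would fall in 904 kb.

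The series has 4 libraries, 1 per antibody, from cells with no treatment named in the labels; the IgG library was not analysed here. The labels name the Avruch and TEAD1 antibodies only as YAP and TEAD, and the fuller names come from the design text. The labels name no tissue or cell type, and with 1 library per antibody no test between antibodies was made. Read depth is not given in the lists, so a low number of peaks and shallow sequencing cannot be told apart. A peak score is the authors' own value without a stated unit, and it is set only beside scores of the same list.

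AP-1 is a dimer of basic leucine zipper proteins that binds enhancers and promoters with the core letters TGANTCA. JUN proteins can pair with each other or with FOS proteins, whereas FOS proteins need a JUN partner. FOS, FOSB, JUN, JUNB and ATF3 are immediate-early or stress-response genes that are switched on rapidly by growth factors and stress. AP-1 and TEAD motifs often lie in the same enhancers of epithelial and cancer cells. The peaks described here are those around the genes that encode AP-1.

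The promoter letters of the members are shown first. For the 7 genes with a known strand, 1 of 39 TEAD1 peaks was centred within 1 kb of a start and 3 within 2 kb. The start was taken as the edge of the gene body. Whether a peak falls in a promoter window was not tested. RefSeq promoter windows of build GRCh38.p14, from 250 bases before to 50 bases after each start, matched 7 of the 8 genes in 8 entries, with 2 entries for ATF3. FOSL1 had no entry. None of the 8 entries held the TEAD letters GGAATG on either strand, which 14% of all 35116 entries held. The AP-1 letters TGANTCA were in 1 of the 8, FOSL2, against 7.71% of all entries. The letters TGACGTCA of the cyclic AMP response element, bound by ATF and JUN dimers, were in JUND alone among the members, against 1.85% of all entries. The variant TGACATCA was in JUN and in 1 ATF3 entry, against 2.61% of all entries. The last 2 searches were added after the letters had been seen. These matches describe letters only and are not shown to be bound. The 4 matches are printed 5′ to 3′ on the strand of the gene, with the matched letters in capitals:

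JUN, 67 bases before the start: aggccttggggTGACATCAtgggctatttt

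ATF3, 123 bases before the start: cacctatgataTGACATCAtatggccactc

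JUND, 200 bases before the start: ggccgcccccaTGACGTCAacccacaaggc

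FOSL2, base 5 after the start: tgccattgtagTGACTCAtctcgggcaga

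The promoters of JUN and FOS are printed in full, because the founding members of both subfamilies differed in where their nearest TEAD1 peak lay. JUN had a TEAD1 peak 0.752 kb outside its body on the side of the start, whereas the nearest one to the FOS body was 7.10 kb away. Both peaks were weak, with scores of 50.03 at JUN and 51.92 at FOS. Of the TEAD1 list, 99.9% and 95% scored higher. Each sequence is the 250 bases before the start, with matches to the searched letters in capitals.

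JUN, GRCh38.p14, minus strand, chr1:58784048-58784297: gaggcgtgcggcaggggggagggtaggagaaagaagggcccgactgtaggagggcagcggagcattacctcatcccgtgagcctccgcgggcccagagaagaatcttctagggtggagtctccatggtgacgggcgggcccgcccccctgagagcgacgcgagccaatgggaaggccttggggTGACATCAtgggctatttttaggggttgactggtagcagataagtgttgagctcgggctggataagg

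FOS, GRCh38.p14, plus strand, chr14:75278578-75278827: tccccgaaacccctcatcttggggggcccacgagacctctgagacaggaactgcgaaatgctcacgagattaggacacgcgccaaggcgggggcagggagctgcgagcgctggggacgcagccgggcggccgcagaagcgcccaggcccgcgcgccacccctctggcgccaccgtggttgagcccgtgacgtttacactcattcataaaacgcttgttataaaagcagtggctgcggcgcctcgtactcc

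All 8 genes had at least 2 TEAD1 peaks in their window, and 4 of them had a YAP peak of the Avruch antibody. For scale, the placed chromosomes were divided into 30078 tiles of 100 kb. At least 1 TEAD1 peak was in 60.8% of tiles and at least 2 were in 35.8%. An Avruch peak was in 21.6% and a Santa Cruz peak in 5.40%. JUNB had 11 TEAD1 peaks, FOSL1 had 10, JUN and FOSB had 6 each, JUND and FOS had 5 each, ATF3 had 4 and FOSL2 had 2. Windows were 102 to 155 kb long, so the counts were also taken per 100 kb. They came to 10.8 for JUNB, 9.26 for FOSL1, 5.77 for JUN, 5.61 for FOSB, 4.90 for JUND, 4.81 for FOS, 2.58 for ATF3 and 1.64 for FOSL2. The tiles had a median of 1 TEAD1 peak and a 90th percentile of 4, so JUN, JUNB, JUND, FOS, FOSB and FOSL1 lay above the 90th percentile and ATF3 and FOSL2 below it. Tiles include assembly gaps and stretches without genes, so they are a broad scale rather than a matched comparison.

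**Figure D1:**
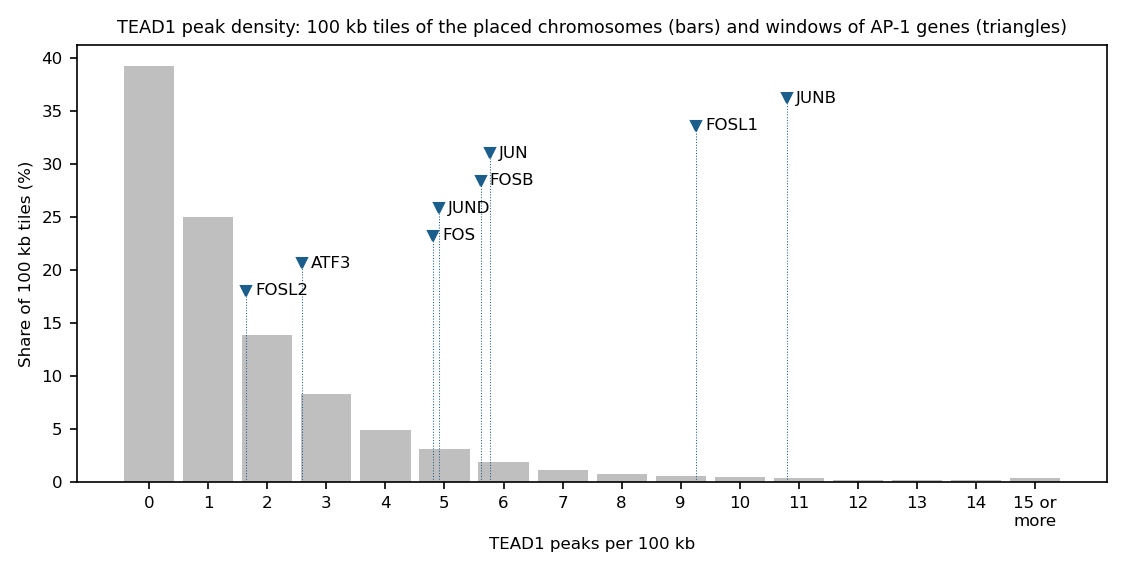
Grey bars give the share of 100 kb tiles (vertical axis, %) with each number of TEAD1 peaks (horizontal axis), over 30078 tiles of the placed chromosomes. Triangles mark the TEAD1 peaks per 100 kb in the window of each AP-1 gene, from 1.64 at FOSL2 to 10.8 at JUNB; their height carries no value.

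The pair of windows with the most TEAD1 peaks, JUNB and FOSL1, also held the most other genes, and the order did not hold among the rest. In the RefSeq table, JUNB had 8 and FOSL1 had 10 other protein-coding genes within 50 kb, JUND and FOSB had 4 each, ATF3 had 1, and JUN, FOS and FOSL2 had none. JUNB, JUND and FOSB lie on chromosome 19, whose tiles had a median of 3 TEAD1 peaks and a 90th percentile of 10. At least 11 TEAD1 peaks were found in 9.49% of the chromosome 19 tiles and in 1.04% of all tiles, and at least 5 in 38.5% and 8.81%. JUN, FOS and FOSL2, with no other protein-coding gene within 50 kb, had 5.77, 4.81 and 1.64 TEAD1 peaks per 100 kb. JUND and FOSB, with 4 each, had 4.90 and 5.61. The part of gene density in the counts was not tested. Peaks near JUNB and FOSL1 also lie near several other genes.

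Of the 49 TEAD1 peaks, 7 were centred inside an AP-1 gene body, 8 lay inside or within 1 kb, and 33 were more than 10 kb away. The bodies made up 104 of the 904 kb, or 11.5%, and held 14.3% of the TEAD1 peaks, so most peaks lay outside the bodies, as did most of the sequence. For the 7 genes with a strand in the table, as many TEAD1 peaks lay upstream of the start as beyond the end, 17 of 39 each, with 5 inside the body. A single one of these 39, at JUN, was centred within 1 kb of a start. Gene bodies were given to 1 kb, so each distance carries an uncertainty of about that size.

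**Figure D2:**
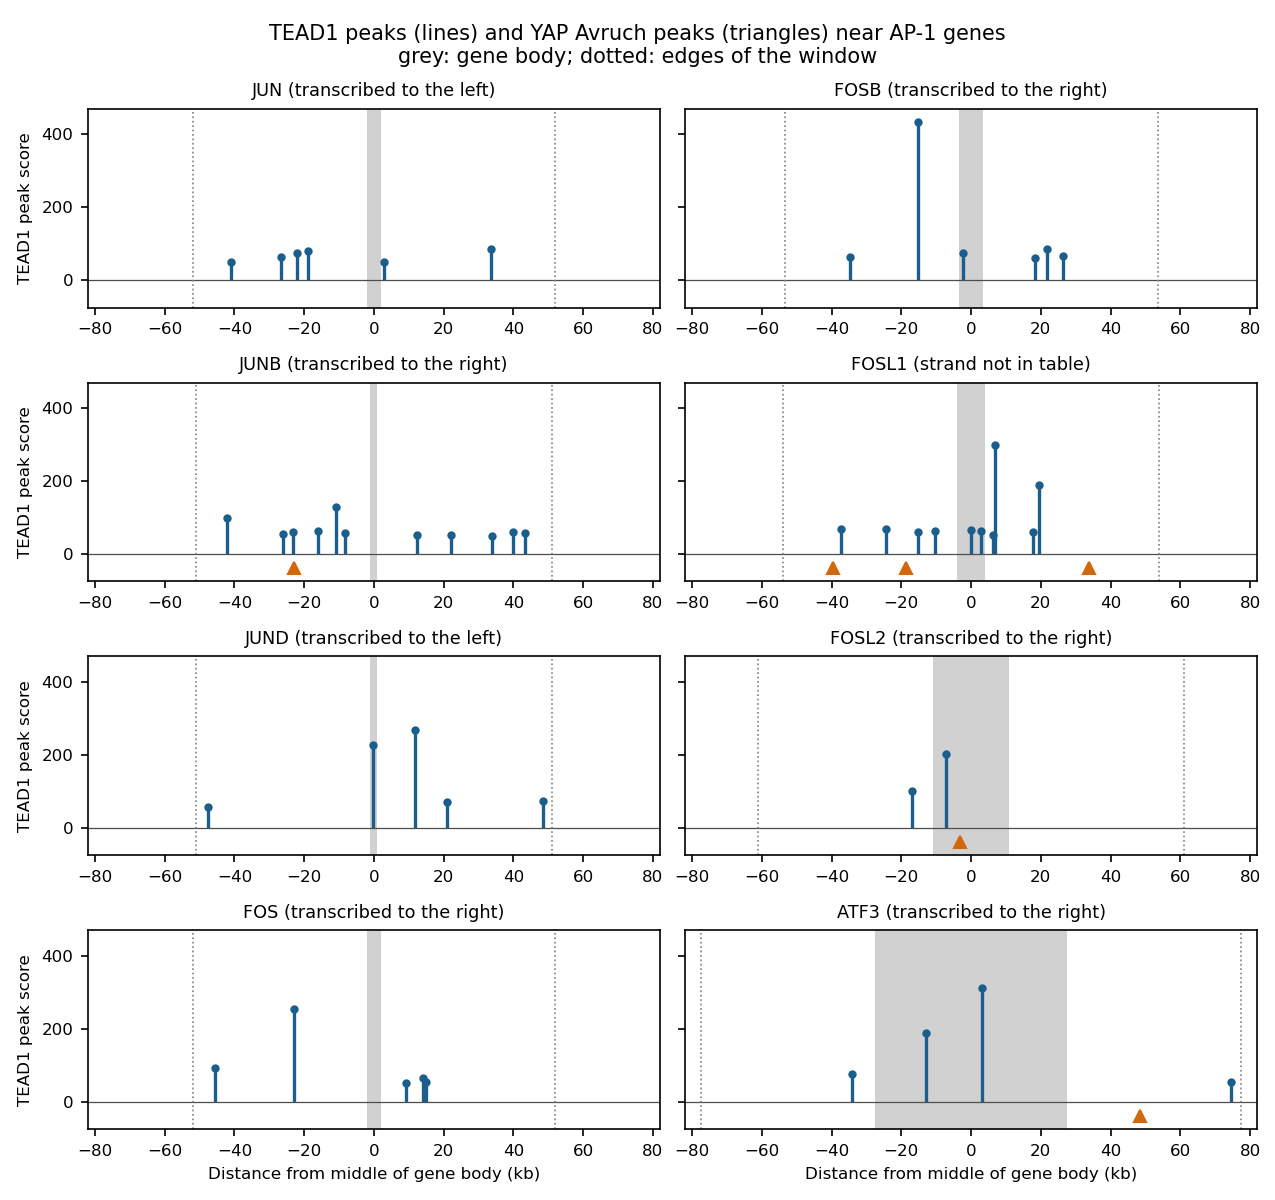
Each panel shows 1 AP-1 gene, with distance from the middle of its body in kb on the horizontal axis (coordinates rise to the right) and the TEAD1 peak score on the vertical axis. Lines with points are TEAD1 peaks, triangles below 0 are YAP peaks of the Avruch antibody placed by position without a score, grey is the gene body and dotted lines are the window edges. The tallest line, 433.73, stands upstream of FOSB, and the lines at JUN are all at or below 84.48.

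JUN, the archetypal AP-1 subunit, had the lowest top score of the 8 genes (hg19, chromosome 1, body 59246 to 59250 kb, minus strand). Its 6 TEAD1 scores were 50.49, 64.80, 75.44, 80.13, 50.03 and 84.48, in coordinate order. The highest belonged to chr1:59281420-59281672, 31.5 kb upstream, and 30.2% of all TEAD1 peaks scored higher. Beyond the end of the gene, 3 peaks followed each other at 28.6, 23.9 and 21.0 kb from the start. The peak beside the start, chr1:59250631-59250873, had a score of 50.03, at the bottom of the list, with 99.9% of TEAD1 peaks above it. The nearest YAP peak was 156.1 kb from the JUN body for the Avruch antibody and 306.9 kb for the Santa Cruz antibody.

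JUNB, a JUN relative that can restrain JUN activity, had many peaks of low score (chromosome 19, body 12902 to 12904 kb, plus strand). Its 11 TEAD1 scores ran from 50.64 to 130.17 with a median of 58.97, below the list median of 67.11. The highest lay 9.86 kb upstream at chr19:12891862-12892422, and 14.1% of the list scored higher. The TEAD1 peak nearest to the body was 7.25 kb away. JUNB had the 1 site in the family where YAP and TEAD1 peaks overlapped. There, 22.0 kb upstream, the Avruch peak chr19:12879885-12880030 (score 58.82 in its list) shared 131 of its 146 bp with the TEAD1 peak chr19:12879774-12880015 (score 59.39 in its list). Both were below the median score of their lists, 63.75 for Avruch and 67.11 for TEAD1.

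JUND, the JUN member that is expressed most steadily, had 5 TEAD1 peaks with scores of 56.75, 226.38, 269.23, 70.30 and 74.50 in coordinate order (chromosome 19, body 18390 to 18392 kb, minus strand). The pair above 200 stood apart from the other 3. The peak with 226.38 lay inside the body at chr19:18390397-18390807, about 1.4 kb from the start, and 6.30% of the list scored higher. The peak with 269.23 lay 10.9 kb upstream at chr19:18402618-18403116, with 4.85% of the list above it. The nearest Avruch peak was 127.0 kb from the body, and the nearest Santa Cruz peak, 57.0 kb away with a score of 56.05, was the closest of that list to any of the 8 genes.

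FOS, the immediate-early partner of JUN, had a strong TEAD1 peak at a distance and none at the gene (chromosome 14, body 75745 to 75749 kb, plus strand). The 5 scores were 93.13, 255.11, 51.92, 66.05 and 54.60 in coordinate order. The peak with 255.11 lay 20.9 kb upstream at chr14:75723921-75724291, and 5.24% of the list scored higher. The next score in the window was 93.13. The 3 peaks beyond the gene, 11.1 to 16.95 kb from the start, were all below the list median. The nearest Avruch peak lay 103.2 kb away and the nearest Santa Cruz peak 1634 kb away.

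FOSB, a close FOS paralogue, had the highest TEAD1 score of the family (chromosome 19, body 45971 to 45978 kb, plus strand). That peak, chr19:45958978-45959633, was 656 bp wide, lay 11.7 kb upstream and scored 433.73, with 2.37% of the list above it. The other 5 scores in the window ran from 60.73 to 85.22. One of these 5, with 75.73, lay inside the body 1.2 kb from the start (chr19:45972082-45972364). ERCC1, a DNA repair gene, is the lower neighbour of FOSB in the RefSeq table, on the side of the upstream peak. The nearest YAP peak, of the Avruch list, was 61.7 kb from the body.

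FOSL1, which encodes FRA-1, a FOS relative without the strong activation domain of FOS, had 10 TEAD1 peaks and the most YAP peaks (chromosome 11, body 65660 to 65668 kb). A pair of strong TEAD1 peaks lay on the higher-coordinate side of the body. The first, chr11:65670576-65671130, scored 298.70 at 2.85 kb from the body, with 4.18% of the list above it, and a weak peak of 52.21 ended 172 bp before it. The second, chr11:65683214-65683583, scored 189.46 at about 15.4 kb, with 8.04% above it. The 2 peaks inside the body had scores of 65.91 and 63.34, and the other 8 ranged from 52.21 to 298.70. The 3 Avruch peaks were chr11:65624351-65624493 (score 55.37), chr11:65645346-65645507 (92.35) and chr11:65697785-65697945 (67.25). None of the 3 overlapped a TEAD1 peak, and the nearest TEAD1 centres were 2.27, 3.44 and 14.5 kb away. The score of 92.35 was the highest YAP score near any AP-1 gene, and 11.6% of the Avruch list scored higher.

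FOSL2, which encodes FRA-2, had the fewest TEAD1 peaks, both above the list median (chromosome 2, body 28616 to 28638 kb, plus strand). Their scores were 101.83 at 5.9 kb upstream (chr2:28609876-28610233) and 202.05 inside the body at 3.7 kb from the start (chr2:28619573-28619892). For the latter, 7.36% of the list scored higher. FOSL2 was the 1 member with a YAP peak inside its body, the Avruch peak chr2:28623864-28624014 with a score of 69.59, 7.9 kb from the start. Its centre was 4.21 kb from that of the TEAD1 peak in the body, and the peaks did not overlap.

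ATF3, a stress-induced member of the ATF/CREB family that dimerises with JUN proteins, had its strong TEAD1 peaks inside the body (chromosome 1, body 212739 to 212794 kb, plus strand). The 4 scores were 75.40, 187.92, 310.73 and 54.00 in coordinate order. The peak with 310.73, chr1:212769165-212769963, was the widest of the 49 at 799 bp and lay 30.6 kb from the upstream edge of the body, with 3.97% of the list above it. The peak with 187.92, chr1:212753220-212753905, lay 14.6 kb from that edge, with 8.16% above it. The weaker peaks lay 6.7 kb upstream and 46.9 kb beyond the end. All these distances were measured from the edges of the body. RefSeq promoter entries of ATF3 on GRCh38.p14, plus strand, began at 212565157 and at 212614768. The place of the peaks relative to the later start was not tested, because no coordinates were converted. A peak inside the body may therefore lie upstream of that later start. The 1 Avruch peak, chr1:212815020-212815118 with a score of 68.39, lay 21.1 kb beyond the end, and its nearest TEAD1 centre was 25.85 kb away.

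Across the family, the strongest TEAD1 peak of each gene lay outside the body for 6 genes and inside it for FOSL2 and ATF3. For ATF3, a place inside the body may still be upstream of the later of its RefSeq starts, which was not tested. Of the 49 TEAD1 peaks, 9 were in the top 10% of the list by score, which is 18.4% (Wilson 95% interval 9.98 to 31.4), where 10.0% of the list falls by definition. Those 9 were spread over 6 genes, with 2 each at JUND, FOSL1 and ATF3 and 1 each at FOS, FOSB and FOSL2. In the top 5% there were 4, at JUND, FOSB, FOSL1 and ATF3. JUN and JUNB had none in the top 10%. The median score of the 49 was 66.05 against 67.11 for the list, with 24 of 49 above the list median, so the middle of the distribution was close to that of the list. Median widths were 283 bp for the 49 and 274 bp for the list, and none of the 49 was 1 kb wide or more. Neighbouring peaks share a locus and are not independent, and the interval covers counting error only.

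**Figure D3:**
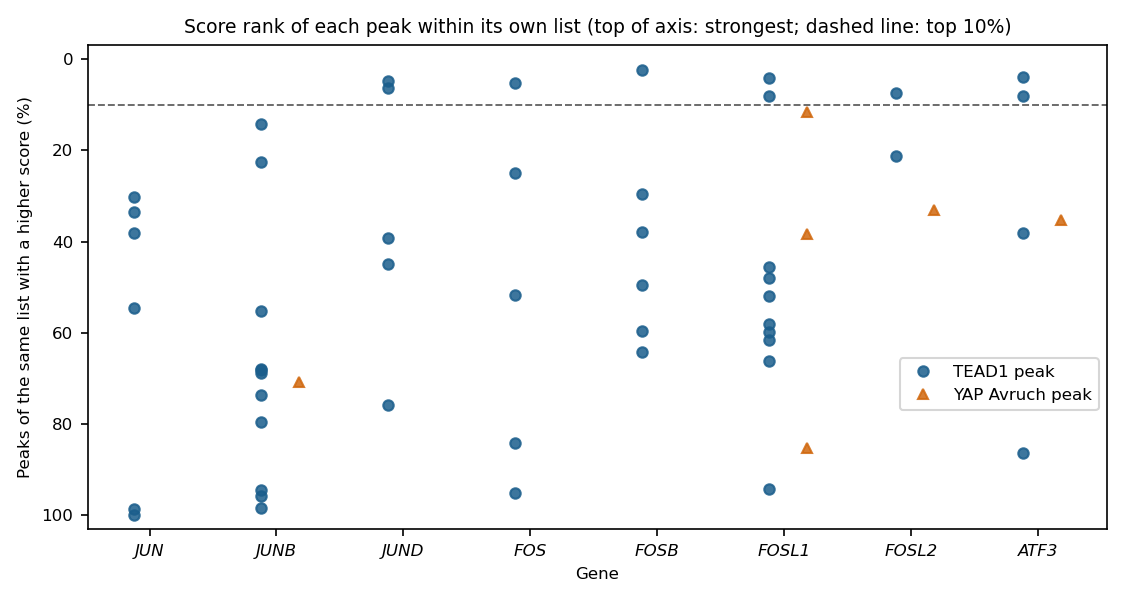
For each peak near an AP-1 gene, the vertical axis gives the share of peaks in the same list that score higher (%, strongest at the top), with genes on the horizontal axis. Circles are TEAD1 peaks and triangles YAP peaks of the Avruch antibody; 9 circles at 6 genes lie above the dashed line at 10%, and no circle of JUN or JUNB and no triangle does.

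The Avruch antibody gave 6 peaks over the 904 kb, or 0.664 per 100 kb, where the tiles had a mean of 0.323. They lay in 4 of the 8 windows, against 21.6% of tiles with a peak, and 3 of the 6 were at FOSL1. On chromosome 19, 42.4% of tiles held an Avruch peak, with a mean of 0.995 per tile. Of the 3 genes there, JUNB alone had an Avruch peak. Of the TEAD1 peaks near AP-1 genes, 1 of 49 overlapped an Avruch peak by at least 1 bp (2.04%, Wilson 95% interval 0.361 to 10.7), against 3.11% of the whole TEAD1 list. None of the 49 overlapped a Santa Cruz peak, against 1.14% of the list, and a count of 0 allows a share of up to 6.12% by the limit of 3 counts (Wilson upper limit 7.27%). Seen from YAP, 1 of the 6 Avruch peaks overlapped a TEAD1 peak (16.7%, 3.01 to 56.4), against 19.4% of the Avruch list. None of the 6 overlapped a Santa Cruz peak, against 8.16% of the list, and here the limit of 3 counts is 50% and the Wilson upper limit 39.0%. Each share of the whole list lay inside the Wilson interval of the family share. With 6 Avruch peaks these intervals are so wide that they could hardly have shown a difference from the list. The 5 Avruch peaks without overlap had their nearest TEAD1 centre 2.27 to 25.85 kb away, and over the whole list the median distance was 8.98 kb. None of the 6 Avruch peaks was in the top 10% of its list. The 9 TEAD1 peaks in the top 10% included no site that overlapped YAP, since the 1 shared site, upstream of JUNB, had a TEAD1 score of 59.39.

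The window edge of 50 kb separated few peaks closely. The TEAD1 peak farthest from its gene inside a window was 47.4 kb from JUND (score 74.50), and the nearest one outside was 52.1 kb from JUN (score 100.82). The nearest Avruch peak outside a window was 61.7 kb from FOSB, with a score of 66.49. With windows of 100 kb, the Santa Cruz list gave 2 peaks, at JUND and FOSL1.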

How the data were processed

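ChIP-seq peak lists of 3 libraries were used, 1 list per library with no pooled replicates. Per the submitters' processing notes, Bowtie2 was the aligner and hg19 the build. MACS appears in the names of the deposited peaks; its version, settings and control are not given in the sources used. Peaks carry a score that the authors deposited without a unit, which was used only within its list. Starts were taken as counted from 0 and are printed counted from 1.

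Gene bodies (hg19, to 1 kb) came with the choice of the genes. The members and lists of genes were chosen with earlier results of these data known. Every member is named with its counts in each list. The peaks given with position are the highest TEAD1 peak of each gene, each YAP peak, and the peaks in or within 1 kb of a body that help to place them; further strong peaks were named after their values were seen. Overlap was at least 1 bp, shares have Wilson 95% intervals, and tiles of 100 kb ran from the first to the last peak of each placed chromosome. Promoter letters, strands and neighbouring genes came from RefSeq tables of GRCh38.p14, matched by symbol, with no coordinates converted. Motifs inside peaks, and peaks near partners such as JDP2 and BATF or upstream kinases, were planned and not analysed here, because no sequence or gene positions of hg19 were used. The overlap and motif code was tested on simulated data. Python 3.11.15, pandas 2.3.3, numpy 2.4.6 and statsmodels 0.14.6 were used. Alternatives were windows of 20 and 100 kb, any overlap with the window, joined peaks, the 50% of peaks with the highest scores, other overlap rules, lists without peaks of at least 1 kb, and other motif letters.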

Additional observations from a re-analysis of the deposited data

How the results depend on the processing

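Window size set the counts of peaks near AP-1 genes by construction. The 49 TEAD1 peaks became 30 with windows of 20 kb and 85 with windows of 100 kb, and the 6 Avruch peaks became 2 and 12. The 0 Santa Cruz peaks became 2 with windows of 100 kb. With the 50% of peaks with the highest scores, 24 TEAD1 and 4 Avruch peaks were left. Counting any overlap with the window gave 49 and 6, and joining peaks with gaps of at most 1 kb gave 47 and 6. The single site shared by TEAD1 and Avruch, upstream of JUNB, lay 22.0 kb from the body and scored below the median in both lists. The overlap was therefore 0% in both directions with windows of 20 kb and with the 50% of peaks with the highest scores. It stayed at 2.04% and 16.7% under the other overlap rules and was 1.18% and 8.33% with windows of 100 kb. TEAD1 peaks in the top 10% numbered 9 also without peaks of at least 1 kb, and 4 with the top 5% instead, an alternative chosen after seeing the data. None of the 8 promoter entries, from 7 members, held TEAD letters of 6 or 8 letters, and FOSL1 had no entry. Of all entries, 14% and 1.17% held them, rates at which few or none would be found in 8. AP-1 letters were in 1 promoter, TGACGTCA in 1 and TGACATCA in 2, the latter searches being chosen after seeing the data. No paired analysis was possible because each antibody has 1 library and no result comes from a test across libraries. Read depth, control and peak caller settings limit every count, and their part was not tested.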
